A study of Homo sapiens with 12 samples.

Results

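Chaperones are proteins that help other proteins fold, hold them while unfolded or pass them on for degradation. The genes described here are 42 human genes chosen by name: heat shock transcription factors, cytosolic HSP70, HSP110 and HSP90, their HSP40 (J-domain) partners and co-chaperones, small heat shock proteins, the 8 subunits of the CCT chaperonin and the mitochondrial chaperones. Of these, 41 matched a row of the deposited table, which held 63541 gene IDs, and HSF1, the main activator of the heat shock response, was not analysed here. The test could be run on 40 of them among 21999 genes in all, because HSPA1B was listed at 0 in each of the 12 libraries.

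The genes were measured in poly(A)+ RNA from HEK293T, a human embryonic kidney line that the labels call epithelial. Cells were transfected with 12.5 nM of a scramble siRNA or of 1 of 3 siRNAs against snaR-A, a small noncoding RNA made by RNA polymerase III, and were collected after 48 h. The labels number these siRNAs si-snaR-A#1, #2 and #3, written below as #1, #2 and #3. With scramble they make 4 groups of 3 biological replicates each, and no other treatment or allele set them apart. The study asked how the loss of snaR-A changes the processing of mRNAs, and the comparisons below ask which chaperone mRNAs changed in abundance.

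In the cytosol, HSP70 binds short hydrophobic stretches of a client in a cycle that J-domain proteins start and nucleotide exchange factors end, and many clients then pass to HSP90, whose own cycle is steered by co-chaperones. The CCT chaperonin is a double ring that folds actin, tubulin and other proteins, and mitochondria keep their own HSP70, HSP90 and HSP60 systems. During heat or proteotoxic stress, HSF1 drives the inducible genes of these families by binding heat shock elements, which are repeats of the unit GAA or TTC in alternating orientation.

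Heat shock elements near the start sites of the members are shown because they are the sites through which HSF1 is known to act. The windows from RefSeq (GRCh38.p14) covered 250 bases before to 50 bases after a start site, and 37 of the 42 genes had one. They were searched for 3 alternating units in either order, GAANNTTCNNGAA and TTCNNGAANNTTC, which are read the same on both strands as a pair. A match was found in 166 of 27305 genes with a window (0.608%), or in 172 of 35116 windows (0.490%). Among the members, 6 of 37 held a match, and the matched bases are in capitals below, 5′ to 3′ on the strand of the gene.
HSP90AA1: ggttcTTCCGGAAGGTTCgggag
HSP90AB1, distal: gcaggTTCTGGAAGATTCatggg
HSP90AB1, proximal: gattgTTCTGGAAGCTTCtggat
HSPA8, distal: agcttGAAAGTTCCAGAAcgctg
HSPA8, proximal: gccccTTCTGGAAGGTTCtaaga
DNAJA1: gggcgGAACTTTCCAGAAcgctc
DNAJB6: gccgaGAACCTTCGCGAAggtgg
HSPD1: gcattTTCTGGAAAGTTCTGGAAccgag

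The HSP90AA1 match lies on the minus strand at chr14:102087115-102087137, with its capitals 88 to 76 bases before the start site. The HSP90AB1 matches are at chr6:44247773-44247795 and chr6:44247826-44247848 on the plus strand. Those of HSPA8 are on the minus strand, at chr11:123062349-123062371 and chr11:123062174-123062196. The DNAJA1 match, at chr9:33025271-33025293 on the plus strand, begins 3 bases past the start site, and that of DNAJB6 is at chr7:157336868-157336890 on the same strand. The HSPD1 stretch, at chr2:197500063-197500090 on the minus strand, holds 18 matched bases, because both motifs occur there and overlap. Its capitals are at -245 to -228 from the second of 2 start sites of HSPD1 (197499840), and it lies downstream of the first (197500274). These are matches of letters, and a window without a match says only that these letters are not in it.

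Library totals ran from 120.4 to 180.1 M counts, and values are given in CPM, the count scaled to the TMM library size, as mean ± SD with n = 3 or for each replicate in order. The level of snaR-A was not analysed here, so the group labels were not checked by the targeted RNA. Of 7 markers of kidney development and kidney epithelium, 6 reached 1 CPM in every group, whereas 0 of 4 markers of the mature tubule and glomerulus did and UMOD, the tubule gene uromodulin, was at 0. Of 5 markers of other cell types only COL1A1, a collagen chain, reached 1 CPM on average. The sum of those 5 fell from between 25.1 and 27.5 CPM in scramble to between 14.1 and 15.3 CPM with #3. That fall was of COL1A1, with means of 25.4 CPM in scramble and 13.6 CPM with #3. The means of CD68, PTPRC and DCN, all under 1 CPM, were higher with #3 than in scramble, and that of PECAM1 was lower. The part of the COL1A1 fall in the values below was not tested. In bulk RNA a change in the makeup of the culture and a change in RNA per cell cannot be told apart.

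More chaperone genes were higher than lower with each siRNA. Calls are those with an adjusted p below 0.05 in edgeR's quasi-likelihood test, adjusted over all 21999 genes. With #1, 25 of the 40 tested members were called (62.5%), beside 45.2% of all genes. Of these 17 were higher and 8 lower, beside 21.9% and 23.3% of all genes. With #2, 20 were called (50%, beside 25.8%), 15 higher and 5 lower (beside 13.7% and 12.1%). The lower count was 3 without scramble replicate 2 or 3, without #1 replicate 2, without #3 replicate 2 or without any 1 of the #2 replicates, because HSP90AB1 and DNAJC7 were then not called. With #3, 29 were called (72.5%, beside 29.4%), 26 higher and 3 lower (beside 16.5% and 13.0%). These genes are abundant, and abundant genes were called more often. Among the 10198 genes that averaged 10 CPM or more, which include all but 1 of the tested members, 63.3%, 40.2% and 46.6% were called with the 3 siRNAs in turn. The share of members called with #1 was therefore near that of genes of like abundance. Without the GC content and length trend its split was 27 higher and 5 lower.

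The median log2 fold change of the members was 0.07 with #1, 0.11 with #2 and 0.27 with #3, beside -0.02, -0.03 and -0.03 over all genes tested. Averaged over the siRNAs, 26 members were called against scramble, beside 32.2% of all genes and 49.0% of those with at least 10 CPM. They were 22 higher and 4 lower, beside 15.6% and 16.6%, and the median of all members was 0.13. The higher ones include HSPH1, HSP90AB1, DNAJA2 and DNAJB4, which were called in opposite directions with single siRNAs. Without scramble replicate 1 the mean gave 15 higher and 4 lower. Together the members took 1.64% ± 0.0499 of the counts in scramble, 1.86% ± 0.0628 with #1, 1.73% ± 0.0140 with #2 and 1.91% ± 0.0251 with #3. These shares are of unscaled counts and, unlike CPM, leave out the TMM factors. Those factors were 1.03 to 1.09 for #1 libraries and 0.956 to 0.973 for #2 and #3 libraries, so the order of the groups may differ in CPM. The unscaled share was above every scramble library in each of the 9 siRNA libraries, whose lowest was 1.716% against a highest of 1.688% in scramble. All comparisons with scramble share the same 3 scramble libraries. The 3 siRNAs were also designed against overlapping sequence near the 3′ end of snaR-A, so they are not independent in target site.

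**Figure D1:**
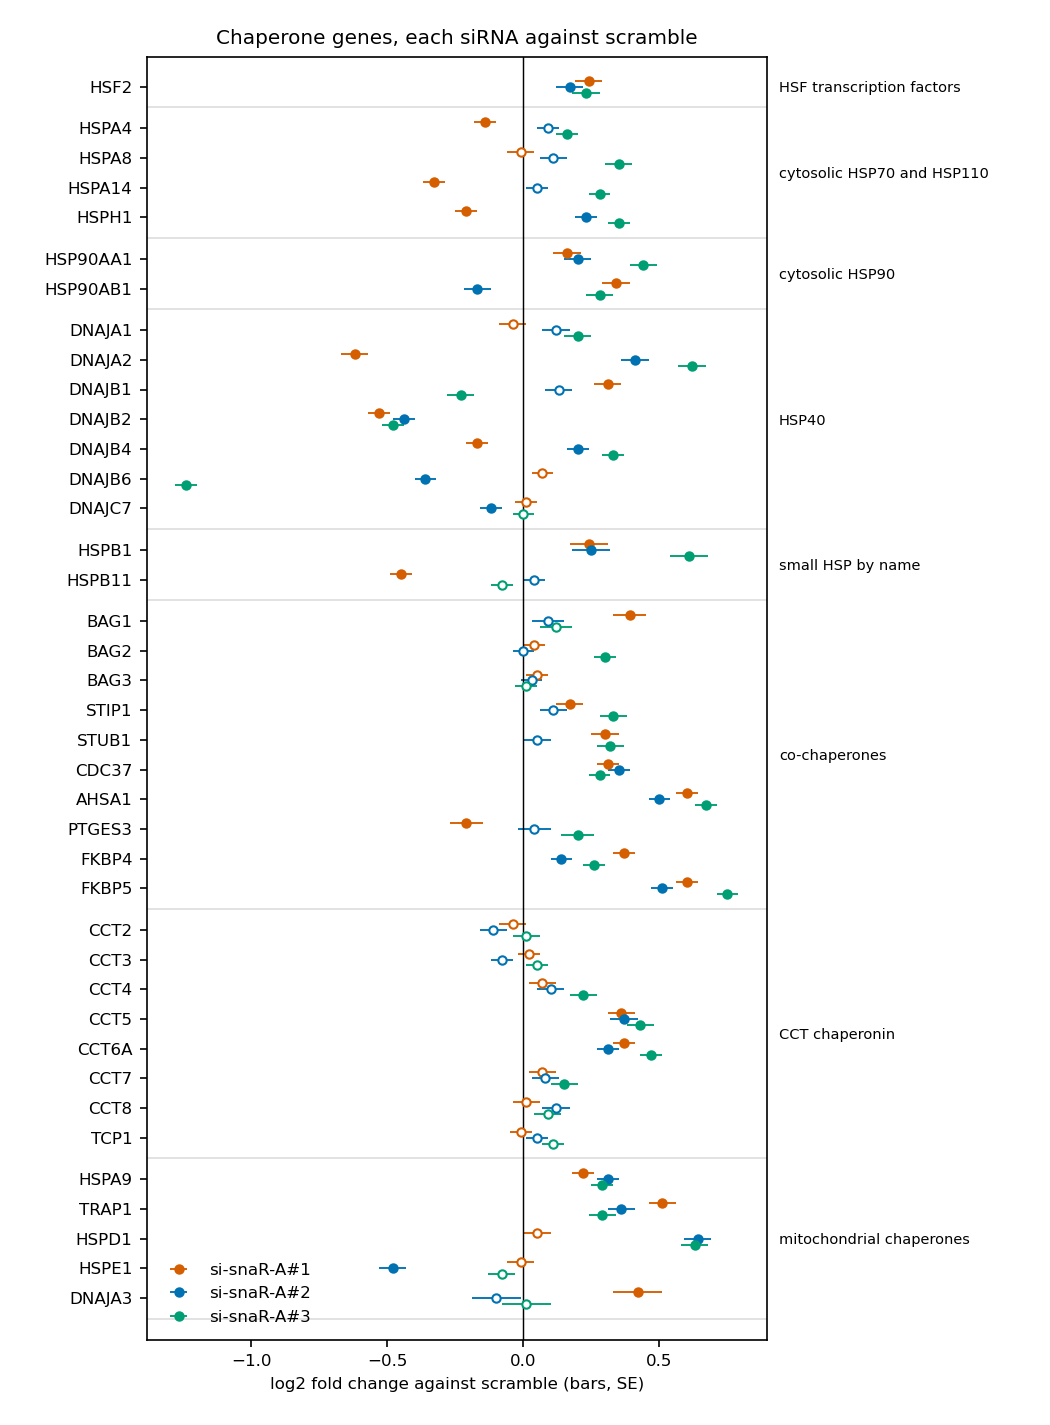
Log2 fold change of 39 tested chaperone genes against scramble on the horizontal axis, grouped by role, with 1 point per siRNA (orange #1, blue #2, green #3), bars of 1 SE and filled points for genes called by edgeR at an adjusted p under 0.05. HSPA1A, whose SE was between 0.55 and 0.56, is left out. Most co-chaperone and mitochondrial points lie right of 0, the points of the HSP40 genes lie on both sides, and DNAJB6 with #3 is farthest left at -1.24.

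Of the 40 members, 11 were higher with all 3 siRNAs, beside 5.16% of all genes tested and 10.5% of those with at least 10 CPM. Without scramble replicate 1, or without scramble replicate 2, this count was 7. The 11 were HSF2, HSP90AA1, HSPB1, CDC37, AHSA1, FKBP4, FKBP5, CCT5, CCT6A, HSPA9 and TRAP1. All 9 siRNA libraries were above all 3 scramble libraries for these genes without HSP90AA1 and with STIP1, which is again 11, beside 6.62% of all genes. Only DNAJB2 was lower with all 3, beside 2.84% of all genes. Another 8 were called in opposite directions with 2 siRNAs and differed between those siRNAs, beside 8.41% of all genes and 14.4% of those with at least 10 CPM. They were HSPA4, HSPA14, HSPH1, HSP90AB1, DNAJA2, DNAJB1, DNAJB4 and PTGES3. HSPA1A, BAG3, CCT2, CCT3, CCT8 and TCP1 were called with none, a pattern of 40.2% of all genes.

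Among the transcription factors, HSF2, a relative of HSF1 that acts in development and joins it on shared targets, was measured at 91.2, 90.9 and 96.5 CPM in scramble, 116, 112 and 102 with #1, 105, 103 and 105 with #2 and 107, 108 and 111 with #3. Each of the 9 siRNA libraries was above the highest scramble library. The log2 fold changes were 0.24 ± 0.05, 0.17 ± 0.05 and 0.23 ± 0.05 for #1, #2 and #3, with edgeR adjusted p = 0.00082, 0.0182 and 0.00246. The call with #2 was lost without scramble replicate 1 (0.15, edgeR adjusted p = 0.065), without scramble replicate 2 (0.15, 0.0703) and without #2 replicate 1 (0.16, 0.0589) or 3 (0.16, 0.0559).

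The cytosolic HSP70 genes split between a stress-induced pair and constitutive members. HSPA1A and HSPA1B, the classical inducible HSP70 genes, are near-identical neighbours in the major histocompatibility region, so reads of one may be assigned to the other or to another haplotype's copy, and their values are uncertain. HSPA1A (chr6:31815543-31817946, GRCh38) was measured at 0.612, 0.0565 and 0.569 CPM in scramble, 0.853, 0.977 and 0.574 with #1, 0.335, 0.626 and 0.398 with #2 and 0.542, 0.556 and 1.07 with #3. All 12 libraries were near or below 1 CPM, the groups overlapped, and none of the 3 log2 fold changes, 0.93 ± 0.55, 0.11 ± 0.56 and 0.78 ± 0.55, was called (edgeR adjusted p = 0.196, 0.919 and 0.326).

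HSPA8, the constitutive HSP70 known as HSC70, was measured at 1031, 1079.9 and 1107 CPM in scramble, 1103, 1097 and 991 with #1, 1136, 1180.1 and 1165 with #2 and 1336, 1354 and 1400.4 with #3. The #3 libraries were above all others, the #2 libraries were above every scramble library, and #1 overlapped scramble. Its log2 fold changes were -0.01 ± 0.05, 0.11 ± 0.05 and 0.35 ± 0.05 with edgeR adjusted p = 0.861, 0.106 and 0.00016. The value with #2 was called in some alternatives, among them DESeq2 (0.14, DESeq2 adjusted p = 0.0329) and the fit without #1 replicate 3 (0.13, edgeR adjusted p = 0.0192). The gene has 17 named pseudogenes, whose mean level here was 0.355 CPM in all.

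The other genes of the class are the HSP110 exchange factors HSPA4 and HSPH1 and the ribosome-bound HSPA14, and these turned in opposite directions. HSPH1 was measured at 159.9, 168 and 159 CPM in scramble, 145, 140.0 and 136 with #1, 195, 183 and 191 with #2 and 209, 204 and 206 with #3. Its #1 libraries were all below scramble and its #2 and #3 libraries all above. Log2 fold changes were -0.21 ± 0.04, 0.23 ± 0.04 and 0.35 ± 0.04 (edgeR adjusted p = 0.00073, 0.00094 and 3.1e-05).

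HSPA14 showed the same order, at 58.0, 57.6 and 57.8 CPM in scramble, 47.4, 45.9 and 44.7 with #1, 61.9, 59.3 and 58.4 with #2 and 69.1, 67.5 and 74.5 with #3. The #1 group was lowest and #3 highest, with no overlap of either with scramble. Its log2 fold changes were -0.33 ± 0.04, 0.05 ± 0.04 and 0.28 ± 0.04, with edgeR adjusted p = 3.5e-05, 0.425 and 0.00027. Once the GC content and length trend was removed the value with #1 was -0.17 for HSPA14 and -0.10 for HSPH1, and both were still called.

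HSPA4 changed by less, at 454, 467 and 462 CPM in scramble, 439.9, 420.0 and 396 with #1, 503, 473 and 499.6 with #2 and 529, 499.9 and 520.1 with #3. Again #1 libraries lay below scramble and #3 libraries above, and the log2 fold changes were -0.14 ± 0.04, 0.09 ± 0.04 and 0.16 ± 0.04 (edgeR adjusted p = 0.0224, 0.154 and 0.0149). The call with #1 was lost after removal of the GC and length trend (-0.06, edgeR adjusted p = 0.177), without scramble replicate 2 (-0.13, 0.0735) or 3 (-0.13, 0.0614) and without #1 replicate 2 (-0.14, 0.0542) or 3 (-0.10, 0.07). The call with #3 was lost without scramble replicate 1 (0.15, 0.0539) and without #3 replicate 1 (0.15, 0.0543). Of the 5 tested genes of the class, 3 were lower and 0 higher with #1 (beside 23.3% and 21.9% of all genes), and 4 were higher and 0 lower with #3 (beside 16.5% and 13.0%).

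The cytosolic HSP90 genes encode the 2 isoforms of the most abundant chaperone of the cytosol, HSP90α and HSP90β. HSP90AA1, the more inducible isoform, was measured at 2447, 2597 and 2625 CPM in scramble, 2988, 2939 and 2617 with #1, 2965, 2854 and 2964 with #2 and 3419, 3399.7 and 3560.4 with #3. The #3 libraries were highest, and #1 replicate 3 fell within the scramble range. Its log2 fold changes were 0.16 ± 0.05, 0.20 ± 0.05 and 0.44 ± 0.05 (edgeR adjusted p = 0.0299, 0.0165 and 5.7e-05). The calls with #1 and #2 did not hold without scramble replicate 1 (0.12, edgeR adjusted p = 0.118, and 0.17, 0.0716). The first was also lost without scramble replicate 2 (0.17, 0.0609) and without #1 replicate 1 (0.12, 0.122) or 2 (0.13, 0.101), and the second without #2 replicate 1 (0.19, 0.0565) or 3 (0.19, 0.0593).

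HSP90AB1, the constitutive isoform, was measured at 1856, 2004 and 2045 CPM in scramble, 2578, 2618 and 2293 with #1, 1753, 1777 and 1717 with #2 and 2337, 2390.2 and 2440.4 with #3. It was higher than in every scramble library with #1 and #3 and lower with #2. On the log2 scale the changes were 0.34 ± 0.05, -0.17 ± 0.05 and 0.28 ± 0.05 (edgeR adjusted p = 0.00021, 0.037 and 0.00194). The level with #1 was higher than with #2 by 0.51 (edgeR adjusted p = 6.6e-06). The difference of #2 minus #3 was -0.45 (edgeR adjusted p = 0.00017). The lower call with #2 is weak. It was lost under RLE scaling (-0.15, edgeR adjusted p = 0.0849), and leaving out any of scramble replicates 2 and 3, the 3 #2 replicates, #1 replicate 2 or #3 replicate 2 gave values between -0.18 and -0.12 with adjusted p between 0.0604 and 0.2.

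The balance of the 2 isoforms shifted with the siRNA. The ratio of HSP90AA1 to HSP90AB1 in CPM was 1.30 ± 0.0177 in scramble, 1.14 ± 0.0183 with #1, 1.67 ± 0.0617 with #2 and 1.45 ± 0.0224 with #3. The ranges of the 4 groups did not overlap. In scramble, on the scale of CPM per kb of the canonical transcript, the isoforms were close (792 ± 29.6 and 770.3 ± 38.9) and were the highest of all members, whereas over the union of exons HSP90AB1 was the higher (660.4 against 502).

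Of the 10 co-chaperones, 7 were higher and 1 lower with #1, 4 were higher with #2 and 8 with #3, and 0 were lower with #2 or #3. These are 80%, 40% and 80% called, beside 45.2%, 25.8% and 29.4% of all genes. Among genes with at least 10 CPM 63.3%, 40.2% and 46.6% were called, so the share with #2 was near that of genes of like abundance. AHSA1, which stimulates the ATPase of HSP90, was measured at 127, 129 and 134 CPM in scramble, 204, 201 and 186 with #1, 184, 177 and 190.5 with #2 and 205, 203 and 212 with #3. The lowest siRNA library was at 177 CPM and the highest scramble library at 134 CPM. It was 1.51, 1.41 and 1.59 times its scramble level with the 3 siRNAs, or 0.60 ± 0.04, 0.50 ± 0.04 and 0.67 ± 0.04 on the log2 scale (edgeR adjusted p = 2.8e-07, 4.9e-06 and 3.9e-07).

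FKBP5, an immunophilin that joins HSP90 on steroid receptors and is itself a glucocorticoid target, was measured at 86.5, 92.8 and 90.9 CPM in scramble, 142, 139.8 and 127 with #1, 131, 126 and 129 with #2 and 153, 153 and 149 with #3. The groups did not overlap with scramble, and #3 was highest. Its level was 1.51, 1.43 and 1.68 times that in scramble, with log2 fold changes of 0.60 ± 0.04, 0.51 ± 0.04 and 0.75 ± 0.04 (edgeR adjusted p = 3.4e-07, 4.9e-06 and 1.9e-07). FKBP4, its relative on the same receptors, was measured at 287, 289 and 301 CPM in scramble, 391, 378 and 368 with #1, 326, 319 and 319.7 with #2 and 348, 342 and 358 with #3. All siRNA libraries were above scramble, but by less. Its log2 fold changes were 0.37 ± 0.04, 0.14 ± 0.04 and 0.26 ± 0.04 (edgeR adjusted p = 3.7e-06, 0.0165 and 0.00022), and the call with #2 was lost under upper quartile scaling (0.09, 0.0516), without scramble replicate 1 (0.12, 0.0654) or 2 (0.13, 0.0641) and without #2 replicate 1 (0.13, 0.0666).

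CDC37, which brings protein kinases to HSP90, was measured at 118, 118 and 118 CPM in scramble, 151, 143 and 145 with #1, 153, 146 and 151 with #2 and 144, 138 and 147 with #3. Scramble replicates were nearly equal, and each siRNA library was above them. On the log2 scale the changes were 0.31 ± 0.04, 0.35 ± 0.04 and 0.28 ± 0.04 (edgeR adjusted p = 1.2e-05, 1.8e-05 and 8.9e-05), and no pair of siRNAs differed in the test. STIP1, the adaptor HOP between HSP70 and HSP90, was also above scramble in all 9 siRNA libraries, from 304 to 317 CPM in scramble to between 325 and 402, but with #2 its log2 fold change of 0.11 was not called (edgeR adjusted p = 0.0935).

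PTGES3, the HSP90 co-chaperone p23, was the exception in the class, at 852, 917 and 936 CPM in scramble, 809, 819 and 708 with #1, 920.1, 946 and 924 with #2 and 997, 1045 and 1063 with #3. The #1 libraries were below all scramble libraries and the #3 libraries above. Log2 fold changes were -0.21 ± 0.06, 0.04 ± 0.06 and 0.20 ± 0.06 (edgeR adjusted p = 0.00854, 0.622 and 0.0186), and #1 and #3 differed by -0.41 (edgeR adjusted p = 6e-05). After removal of the GC and length trend the value with #1 was -0.04 (edgeR adjusted p = 0.516), and the call with #3 was lost without scramble replicate 1 (0.16, 0.084) and without #3 replicate 2 (0.19, 0.0619) or 3 (0.18, 0.0624).

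The partners of HSP70 in the class changed less evenly. BAG3, an exchange factor that is induced with the heat shock response and feeds selective autophagy, was measured at 39.5, 40.2 and 40.8 CPM in scramble, 43.7, 40.9 and 40.5 with #1, 42.2, 41.1 and 40.0 with #2 and 40.9, 38.9 and 41.1 with #3. The 4 groups overlapped, and the log2 fold changes of 0.05 ± 0.04, 0.03 ± 0.04 and 0.01 ± 0.04 were not called (edgeR adjusted p = 0.32, 0.611 and 0.943). BAG1, a second exchange factor, was called with #1 (0.39, edgeR adjusted p = 0.00016) but not with the others, and BAG2 with #3 (0.30, 5.6e-05) but not with the others. STUB1, the ubiquitin ligase CHIP, was higher with #1 (0.30, edgeR adjusted p = 0.00022) and #3 (0.32, 0.00027) and had a value of 0.05 with #2 (0.476).

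**Figure D2:**
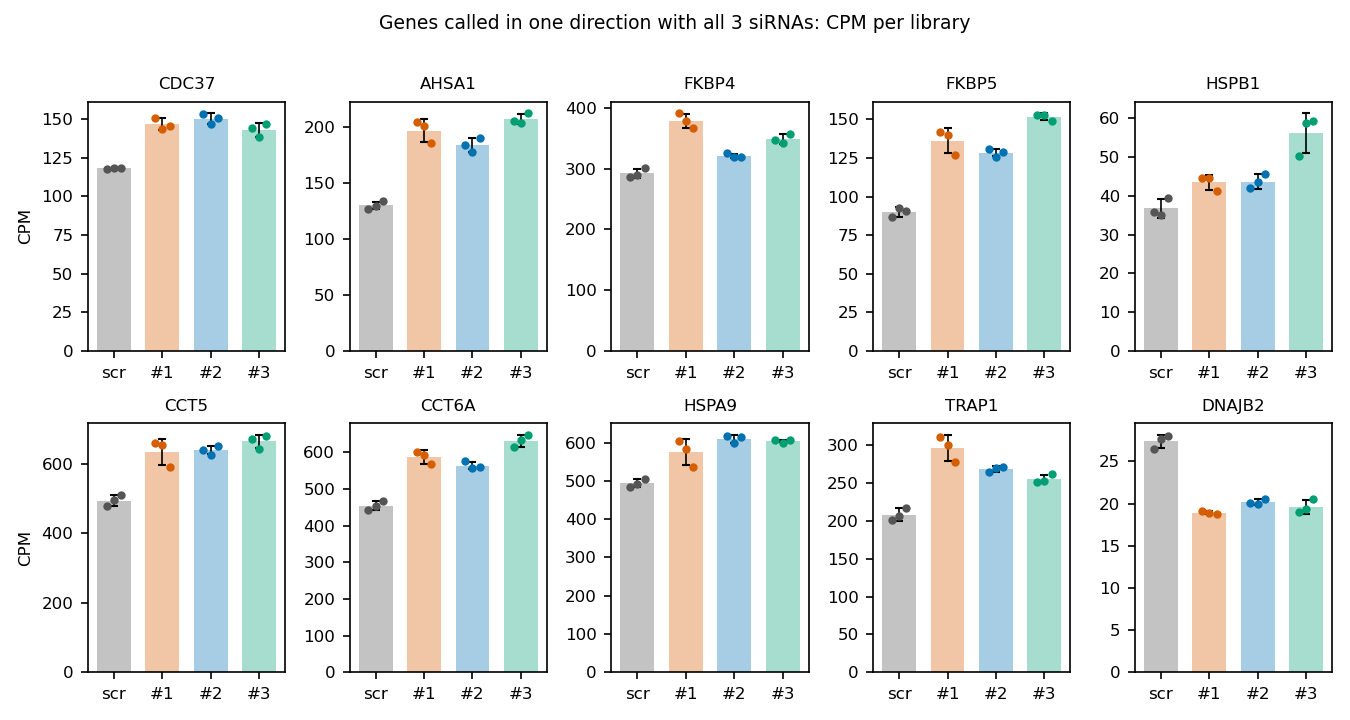
CPM of 10 genes called in 1 direction with all 3 siRNAs, 1 panel per gene, with bars for the mean of scramble (scr, grey), #1 (orange), #2 (blue) and #3 (green), points for the 3 libraries of each group and error bars of 1 SD. In 9 panels every siRNA point is above every scramble point, as for AHSA1 from 130.0 CPM in scramble to 207 with #3, and in the DNAJB2 panel every siRNA point is below.

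J-domain proteins, which deliver clients to HSP70 and start its cycle, held the largest falls among called members. Of the 7 genes, 1 was higher and 3 lower with #1, 2 higher and 3 lower with #2, and 3 higher and 3 lower with #3. The shares called were 57.1%, 71.4% and 85.7%, beside 45.2%, 25.8% and 29.4% of all genes. Of genes with at least 10 CPM 63.3%, 40.2% and 46.6% were called, so the share with #1 was near that of genes of like abundance. DNAJB2, a J-domain protein that binds ubiquitinated clients and is abundant in neurons, was measured at 26.5, 27.6 and 28.0 CPM in scramble, 19.1, 18.9 and 18.8 with #1, 20.1, 19.9 and 20.6 with #2 and 18.9, 19.4 and 20.5 with #3. All 9 siRNA libraries were below the 3 scramble libraries, a pattern shown by 5.50% of all genes. It fell to 0.692, 0.739 and 0.717 times its scramble level, with log2 fold changes of -0.53 ± 0.04, -0.44 ± 0.04 and -0.48 ± 0.04 (edgeR adjusted p = 5.3e-07, 1.1e-05 and 4e-06), and no pair of siRNAs differed in the test.

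DNAJA2, a type A J-domain protein of the cytosol, had the widest opposite changes, at 91.0, 92.9 and 101 CPM in scramble, 63.6, 62.3 and 59.6 with #1, 127, 123 and 129 with #2 and 146, 141 and 150.4 with #3. It was lower than in every scramble library with #1 and higher with #2 and #3. On the log2 scale the changes were -0.62 ± 0.05, 0.41 ± 0.05 and 0.62 ± 0.05 (edgeR adjusted p = 3.3e-07, 3.6e-05 and 1.1e-06). The difference between #1 and #3 was -1.24 (edgeR adjusted p = 1.1e-09).

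DNAJB1, the classical heat-induced HSP40 and a feedback inhibitor of HSF1, was measured at 86.2, 89.0 and 95.0 CPM in scramble, 118, 111 and 107 with #1, 99.8, 97.8 and 98.5 with #2 and 73.8, 76.4 and 80.2 with #3. It went the other way, with #1 libraries above scramble and #3 libraries below. The log2 values were 0.31 ± 0.05, 0.13 ± 0.05 and -0.23 ± 0.05 (edgeR adjusted p = 0.00016, 0.0634 and 0.00315). The middle value, for #2, was called in some alternatives, among them RLE scaling (0.15, edgeR adjusted p = 0.043) and the fit without scramble replicate 3 (0.19, 0.0166).

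DNAJB4, a close relative of DNAJB1, was measured at 38.3, 37.9 and 38.7 CPM in scramble, 35.3, 33.6 and 33.6 with #1, 44.2, 41.3 and 46.4 with #2 and 48.3, 47.2 and 49.2 with #3. Libraries of #1 were below scramble and those of the other siRNAs above, with log2 fold changes of -0.17 ± 0.04, 0.20 ± 0.04 and 0.33 ± 0.04 (edgeR adjusted p = 0.00811, 0.0051 and 0.00011). The value with #1 turned to 0.13 when the GC content and length trend was removed (edgeR adjusted p = 0.00935), so its direction depends on that choice.

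DNAJB6, a suppressor of polyglutamine aggregation, was singled out after its values were seen. It was measured at 201, 212 and 215 CPM in scramble, 226, 223 and 209.8 with #1, 165, 158 and 165 with #2 and 91.1, 85.7 and 89.8 with #3. The #3 libraries held 91.1 CPM at most, less than any other library, and #2 libraries were also below scramble. Log2 fold changes were 0.07 ± 0.04, -0.36 ± 0.04 and -1.24 ± 0.04 (edgeR adjusted p = 0.205, 4.6e-05 and 3.3e-09), and #2 and #3 differed by 0.87 (edgeR adjusted p = 1.1e-07). Of the remaining HSP40 genes, DNAJA1 was higher with #3 (0.20, edgeR adjusted p = 0.00974) and not called with the others, and DNAJC7, a J-domain protein with tetratricopeptide repeats, was just past the threshold with #2 (-0.12) and at 0.01 and 0.00 with #1 and #3. Its call with #2 was lost under RLE scaling, DESeq2, no expression filter and the replicate block, without any 1 scramble, #2 or #3 replicate and without #1 replicate 2, at values between -0.15 and -0.10 with adjusted p between 0.0506 and 0.213.

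Among small heat shock proteins, HSPB1, the holdase HSP27, was measured at 35.9, 35.0 and 39.5 CPM in scramble, 44.5, 44.6 and 41.2 with #1, 41.9, 43.5 and 45.6 with #2 and 50.3, 58.8 and 59.3 with #3. All siRNA libraries were above scramble and #3 was highest, with log2 fold changes of 0.24 ± 0.07, 0.25 ± 0.07 and 0.61 ± 0.07 (edgeR adjusted p = 0.0111, 0.0169 and 2.7e-05). The call with #2 was lost without scramble replicate 1 (0.23, edgeR adjusted p = 0.0607) or 2 (0.21, 0.0713) or #2 replicate 3 (0.22, 0.0705), and that with #1 without scramble replicate 2 (0.20, 0.0535). HSPB11 carries the name of the family but is the intraflagellar transport protein IFT25 in current annotation. It was lower with #1 (-0.45, edgeR adjusted p = 3.3e-06) and not called with the others.

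**Figure D3:**
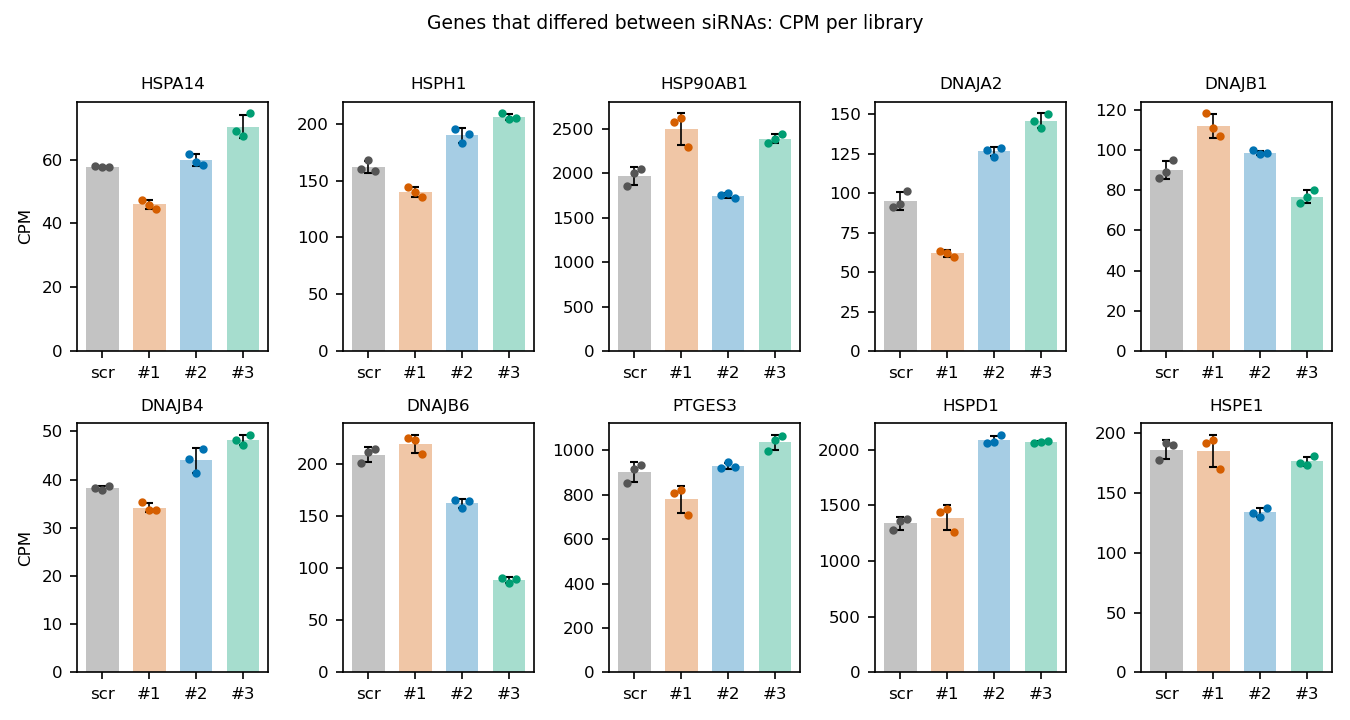
CPM of 10 genes that differed between siRNAs, 1 panel per gene, with bars for the mean of scramble (scr, grey), #1 (orange), #2 (blue) and #3 (green), points for the 3 libraries of each group and error bars of 1 SD. HSPA14, HSPH1, DNAJA2, DNAJB4 and PTGES3 are lowest with #1 and highest with #3, DNAJB1 runs the other way, and HSP90AB1 and HSPE1 are lowest with #2.

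Among the CCT subunits, CCT5 and CCT6A rose with all 3 siRNAs while CCT2, CCT3, CCT8 and TCP1 were called with none. Of the 8 subunits, 2 were higher with #1, 2 with #2 and 4 with #3, and 0 were lower. That is 25%, 25% and 50% called, beside 45.2%, 25.8% and 29.4% of all genes. Of genes with at least 10 CPM 63.3%, 40.2% and 46.6% were called. The share with #3 was thus near that of genes of like abundance, and those with #1 and #2 were below it. CCT5 was measured at 477, 496 and 509 CPM in scramble, 659.6, 653 and 589.5 with #1, 641, 626 and 651 with #2 and 671, 643 and 679 with #3, and every siRNA library was above every scramble library. It was 1.28, 1.29 and 1.34 times its scramble level, with log2 fold changes of 0.36 ± 0.05, 0.37 ± 0.05 and 0.43 ± 0.05 (edgeR adjusted p = 4.6e-05, 0.0001 and 2.9e-05).

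CCT6A was measured at 443, 454 and 467 CPM in scramble, 602, 594 and 567 with #1, 575, 557 and 559 with #2 and 613, 632 and 646 with #3, again with no overlap. Its log2 fold changes were 0.37 ± 0.04, 0.31 ± 0.04 and 0.47 ± 0.04 (edgeR adjusted p = 5.8e-06, 7.9e-05 and 2.3e-06). CCT2, which sits in the same ring, ranged from 335 to 351 CPM in scramble and from 312 to 362 CPM in the siRNA libraries. The ratio of CCT5 to CCT2 in CPM went from 1.43 ± 0.0184 in scramble to 1.88 ± 0.0507, 2.00 ± 0.0404 and 1.90 ± 0.0287, and that of CCT6A to CCT2 from 1.32 ± 0.0183 to 1.75 ± 0.0460, 1.77 ± 0.0148 and 1.81 ± 0.0565. Neither ratio overlapped between scramble and any siRNA group.

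Of the other subunits, CCT4 (0.22, edgeR adjusted p = 0.00768) and CCT7 (0.15, 0.0315) were higher with #3 and not called with the others. The call of CCT7 was lost without scramble replicate 1 (0.12, 0.124) or 2 (0.17, 0.0549) and without any 1 of the #3 replicates (0.14 to 0.16, 0.0616 to 0.0796). For the 4 uncalled genes the log2 fold changes lay between -0.11 and 0.12. Although the complex holds 1 copy of each subunit per ring, the mRNAs were not equal. In scramble they ranged from 150 ± 4.88 CPM per kb of canonical transcript for CCT5 to 380.1 ± 11.9 for CCT3, a ratio of 2.53, and CCT5, CCT6A and CCT2 were the lowest. With the union of exons as length the ratio was 3.54, CCT4 was highest and CCT2 lowest, so the order rests on the length used.

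**Figure D4:**
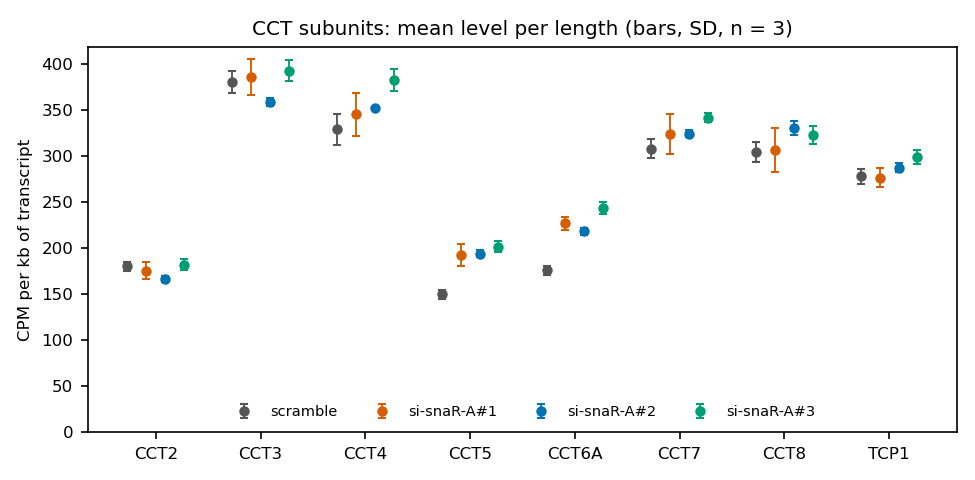
Level of the 8 CCT subunits in CPM per kb of the canonical transcript, with a point for the mean of the 3 libraries of each group (grey scramble, orange #1, blue #2, green #3) and bars of 1 SD. CCT5 and CCT6A, from 150.1 and 176 in scramble, are the subunits whose scramble point lies below all 3 siRNA points with no overlap of the bars.

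Of the 5 mitochondrial chaperones, 3 were higher with each siRNA, and 1 was lower with #2. Called were 60%, 80% and 60%, beside 45.2%, 25.8% and 29.4% of all genes and 63.3%, 40.2% and 46.6% of those with at least 10 CPM. The share with #1 was thus near that of genes of like abundance. HSPA9, the matrix HSP70 (mortalin), was measured at 484, 491 and 505 CPM in scramble, 604, 582 and 537 with #1, 616, 598 and 615 with #2 and 606, 599.8 and 607 with #3. All 9 siRNA libraries were above scramble, with log2 fold changes of 0.22 ± 0.04, 0.31 ± 0.04 and 0.29 ± 0.04 (edgeR adjusted p = 0.00108, 0.00022 and 0.00026), and no pair of siRNAs differed in the test. TRAP1, the mitochondrial HSP90, was measured at 201, 206 and 217 CPM in scramble, 310.4, 300.4 and 277 with #1, 264, 269 and 271 with #2 and 252, 252 and 262 with #3. It was also above scramble throughout and highest with #1, with log2 fold changes of 0.51 ± 0.05, 0.36 ± 0.05 and 0.29 ± 0.05 (edgeR adjusted p = 1.5e-06, 8.1e-05 and 0.00035). DNAJA3, the mitochondrial J-domain protein TID1, was higher with #1 (0.42, edgeR adjusted p = 0.00191) and not called with the others.

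HSPD1 and HSPE1, the HSP60 and HSP10 subunits of the mitochondrial chaperonin, are a head-to-head pair on chromosome 2, and they were singled out after their values were seen. In RefSeq the first start site of HSPE1 (position 197500379, plus strand) is 105 bases from that of HSPD1 (197500274, minus strand), so the genes share the DNA between them. HSPD1 was measured at 1275, 1362 and 1377 CPM in scramble, 1436, 1470.1 and 1264 with #1, 2061, 2071 and 2132 with #2 and 2058, 2072 and 2078 with #3. It was higher than in any scramble or #1 library in each of the #2 and #3 libraries, with log2 fold changes of 0.05 ± 0.05, 0.64 ± 0.05 and 0.63 ± 0.05 (edgeR adjusted p = 0.451, 3.9e-06 and 3.6e-06).

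HSPE1 did not follow, at 177, 191 and 189.9 CPM in scramble, 192, 194 and 169.6 with #1, 133, 130.3 and 138 with #2 and 175, 174 and 181 with #3. It was lowest with #2, below every other library, and the other groups overlapped, with log2 fold changes of -0.01 ± 0.05, -0.48 ± 0.05 and -0.08 ± 0.05 (edgeR adjusted p = 0.913, 2.8e-05 and 0.301). The ratio of HSPD1 to HSPE1 in CPM was 7.19 ± 0.0677 in scramble, 7.51 ± 0.0639 with #1, 15.6 ± 0.234 with #2 and 11.7 ± 0.22 with #3. Replicates of a group thus held the ratio within a narrow range while its group mean ran from 7.19 to 15.6. With the GC content and length trend removed, both were higher with #1 (HSPD1 by 0.20, edgeR adjusted p = 0.000902, and HSPE1 by 0.25, 4.62e-05). In the same setting HSPE1 was called lower with #3 (-0.13, edgeR adjusted p = 0.0111), as it was under upper quartile scaling (-0.13, 0.0457). HSPD1 has 18 named pseudogenes and HSPE1 26, at a mean of 0.359 and 0.118 CPM in all, and the readthrough gene HSPE1-MOB4 was between 1.04 and 1.49 CPM on average and was not called.

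Between siRNAs, 20 of the 40 members differed between #1 and #2, beside 46.7% of all genes, 10 higher and 10 lower with #1 (beside 23.7% and 23.0%). Between #1 and #3, 24 differed (beside 48.6%), 6 higher and 18 lower with #1 (beside 23.8% and 24.8%). Between #2 and #3, 16 differed (beside 15.6%), 2 higher and 14 lower with #2 (beside 6.52% and 9.03%). The splits between #1 and the others depended on the scaling. Under upper quartile scaling they were 18 higher and 8 lower against #2 and 10 higher and 14 lower against #3, and without the GC and length trend 18 and 9 against #2 and 14 and 13 against #3. The 2 that were higher with #2 than with #3 were DNAJB1 and DNAJB6. Of the 8 members with opposite calls 4, namely HSPA14, HSPH1, DNAJA2 and DNAJB1, had those calls in all 21 alternatives that were run.

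The members with a heat shock element by the search above did not move together. HSP90AA1 was higher with all 3 siRNAs, HSPD1 with #2 and #3, HSPA8 and DNAJA1 with #3, HSP90AB1 was called in opposite directions and DNAJB6 was lower with #2 and #3. The window of BAG3, HSPH1 or DNAJB1 held no match to these 13 letters.

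Other genes of the chaperone pathways were called in both directions. Of 64 listed genes, 62 were in the table and 56 were tested. With #1, 18 were higher and 16 lower (60.7% called, beside 45.2% of all genes and 63.3% of those with at least 10 CPM). With #2, 12 were higher and 10 lower (39.3%, beside 25.8% and 40.2%), and with #3, 19 were higher and 9 lower (50%, beside 29.4% and 46.6%). The other co-chaperones of HSP70 and HSP90 had 8 higher and 4 lower of 18 with #1 (66.7% called), 5 and 4 with #2 (50%), and 8 and 2 with #3 (55.6%). The shares of all genes and of those with at least 10 CPM are those just given. TOMM34, a cytosolic adaptor for mitochondrial import, had their largest rise and was measured at 42.7, 45.3 and 47.3 CPM in scramble, 85.7, 87.9 and 77.8 with #1, 66.7, 68.8 and 68.5 with #2 and 63.4, 67.1 and 65.6 with #3, with no overlap with scramble and log2 fold changes of 0.89 ± 0.05, 0.59 ± 0.05 and 0.54 ± 0.05 (edgeR adjusted p = 2.8e-08, 3.9e-06 and 7e-06). PPP5C, a phosphatase of the HSP90 complex, fell most in the mean of the siRNAs (-0.10, edgeR adjusted p = 0.0229), but the siRNAs differed, with 0.09 for #1 (not called, 0.0683), -0.13 for #2 (0.0152) and -0.24 for #3 (0.00027).

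The other cytosolic HSP70, HSP40 and small HSP genes had 2 higher and 6 lower of 15 with #1 (53.3% called, beside 45.2% of all genes), 1 and 3 with #2 (26.7%, beside 25.8%), and 4 of each with #3 (53.3%, beside 29.4%). Of genes with at least 10 CPM, a level that some of this list did not reach, 63.3%, 40.2% and 46.6% were called. DNAJC5, the cysteine string protein of secretory vesicles, was measured at 60.9, 63.8 and 64.3 CPM in scramble, 59.9, 54.9 and 54.4 with #1, 51.9, 53.0 and 51.0 with #2 and 23.8, 24.8 and 24.7 with #3. It was lower than scramble in all siRNA libraries, most with #3, with log2 fold changes of -0.16 ± 0.04, -0.28 ± 0.04 and -1.37 ± 0.04 (edgeR adjusted p = 0.00869, 0.00042 and 2e-09). DNAJB12, a J-domain protein of the endoplasmic reticulum membrane, had the largest rise of the list in the mean (0.26, edgeR adjusted p = 0.00111).

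Of 10 other mitochondrial chaperones and cofactors, 6 were higher and 1 lower with #1, 5 and 1 with #2, and 4 and 0 with #3. The shares called were 70%, 60% and 40%, beside 45.2%, 25.8% and 29.4% of all genes. Of genes with at least 10 CPM 63.3%, 40.2% and 46.6% were called. LONP1, the matrix protease and chaperone, was measured at 93.0, 86.3 and 89.7 CPM in scramble, 152, 151 and 143 with #1, 150.3, 158 and 148 with #2 and 97.8, 103 and 106 with #3. Every siRNA library was above scramble, by more with #1 and #2, and the log2 fold changes were 0.73 ± 0.04, 0.76 ± 0.04 and 0.19 ± 0.04 (edgeR adjusted p = 5.7e-08, 1.8e-07 and 0.00615).

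Prefoldin and the CCT cofactors, which hand substrates to the chaperonin, had 1 higher and 4 lower of 10 with #1, 1 and 2 with #2, and 3 and 2 with #3. Called were 50%, 30% and 50%, beside 45.2%, 25.8% and 29.4% of all genes, which is near that share with #1 and #2. Of genes with at least 10 CPM, a level that most of this list reached, 63.3%, 40.2% and 46.6% were called. The share with #3 was near that of these abundant genes. In the mean of the siRNAs, PFDN2, a prefoldin subunit, rose by 0.20 (edgeR adjusted p = 0.00248) and PDCL, a phosducin-like cofactor, fell by 0.18 (0.00098). Among 3 tested HSF genes and HSF binding proteins, HSBP1, which binds the trimerisation domain of HSF1, was lower in the mean (-0.20, edgeR adjusted p = 0.00095), with values of -0.33 ± 0.04, -0.09 ± 0.04 and -0.17 ± 0.04 for the single siRNAs.

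Exons of 21 of the 41 members that matched a row overlap those of another gene. Among them are TRAP1 with the antisense gene DNASE1, STUB1 with JMJD8, BAG2 with RAB23 and CCT5 with an antisense long noncoding RNA. The library kit keeps strand, but the use of strand in the counting is not given in the sources used here, so reads of such pairs may not have been told apart.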

How the data were processed

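Stranded libraries were made, per the labels, from rRNA-depleted RNA after poly(A)+ selection. The authors trimmed the reads with Trim Galore and quantified them with Salmon on hg38, and deposited estimated counts for Ensembl gene IDs, not scaled across libraries. The transcript set and the step from transcripts to genes are not given in the sources used here. Symbols came from GENCODE 44, which held 58160 of the 63541 IDs. The other 5381 IDs took 2.69% to 2.90% of the counts.

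Estimated counts were rounded to whole counts. Genes passing filterByExpr (21999) were scaled by TMM (factors 0.956 to 1.089) and fitted in edgeR 4.0.16 (R 4.3.3) with 1 coefficient per group over all 12 libraries. The quasi-likelihood test was adjusted over these genes by Benjamini-Hochberg. Standard errors derive from the F statistic. The common biological coefficient of variation was 0.117. Replicates differed by more than sampling noise in every pair. P-values measure the spread between the labelled biological replicates. Alternatives used RLE or upper quartile scaling, other filters, DESeq2 1.42.0, limma 3.58.1 (voom), edgeR's exact test, a replicate block, removal of a GC and length trend, and 1 library left out at a time. The pipeline was tested on simulated data.

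The members and gene lists were chosen with earlier results of these data known. Values by library are given for the core heat shock genes except HSF1, which was not analysed. They are also given for members called in 1 direction with all 3 siRNAs or in opposite directions with 2 of them. From each pathway list, the called genes with the largest rise and the largest fall in the mean of the siRNAs are named, among genes that averaged 1 CPM or more.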

Additional observations from a re-analysis of the deposited data

Results flagged for a closer look

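The 8 chaperone genes that edgeR called in opposite directions against scramble with 2 siRNAs were set apart because the 2 siRNAs also differed in the direct comparison between them. The differences are log2 fold changes of the first siRNA over the second, with n = 3 each.

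With #1 the level of HSPA4 was lower than with #3 by a log2 difference of -0.30, and that of HSPA14 by -0.61. HSPH1 differed by -0.44 between #1 and #2 and by -0.56 between #1 and #3. DNAJA2 had the widest gaps, -1.03 between #1 and #2 and -1.24 between #1 and #3. DNAJB4 gave -0.36 and -0.50 in the same comparisons, and PTGES3 gave -0.41 between #1 and #3. For all of these the #1 libraries were below the scramble libraries.

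HSP90AB1 went the other way, with 0.51 between #1 and #2 and -0.45 between #2 and #3, and DNAJB1 was 0.54 higher with #1 than with #3. No cause was tested. The opposite calls of HSPA4, HSP90AB1, DNAJB4 and PTGES3 did not hold in every alternative.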

How the results depend on the processing

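The number of members called in each comparison stayed within 1.5 times its value in all 21 alternatives. Of the counts over all 3 siRNAs, 1 did not, since leaving out scramble replicate 1 or 2 left 7 members higher with all 3 siRNAs in place of 11. Those 7, in both cases, were CDC37, AHSA1, FKBP5, CCT5, CCT6A, HSPA9 and TRAP1. With 1 library left out at a time that count ran from 7 to 13, the count lower with all 3 siRNAs was 1 each time, and the count with opposite calls ran from 6 to 8. The count called ran from 22 to 26 with #1, 15 to 26 with #2, 26 to 30 with #3 and 19 to 29 for the mean of the siRNAs. Counts in 1 direction moved further. The 5 lower with #2 were 3 under RLE scaling, without an expression filter, under the replicate block and in 7 of the alternatives that left out 1 library. The 3 lower with #3 were 5 under upper quartile scaling and without the GC content and length trend. Without that trend #1 gave 27 higher and 5 lower. Between siRNAs, the 10 higher and 10 lower with #1 against #2 became 18 and 8 under upper quartile scaling, 16 and 10 with the 1 CPM filter and 18 and 9 without the trend. The 6 and 18 against #3 became 10 and 14, 10 and 15, and 14 and 13. The ratio of the highest to the lowest CCT subunit per kb moved from 2.53 to 3.54 with the union of exons.

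Of 104 fold changes of named members, 2154 values were computed under the alternatives. Most kept direction and call, and 30 changed sign, of which only 2 passed the test (edgeR adjusted p under 0.05), DNAJB4 with #1 at 0.13 and HSPE1 with #1 at 0.25, both without the GC content and length trend. The cause was not tested. The others were small except for HSPA1A with #2, at -0.38 without scramble replicate 2 and -0.20 without #2 replicate 2. Without that trend HSPA8 with #1 was 0.07 and BAG3 with #1 -0.01. The 1 CPM filter gave HSPA8 0.01 and HSPE1 0.02 with #1, HSPA14 -0.001 in the mean and BAG3 -0.02 with #3. Upper quartile scaling gave HSPA14 -0.03 and PTGES3 -0.02 in the mean, PTGES3 -0.0007 and BAG3 -0.01 with #2, and BAG3 -0.05 with #3. RLE scaling and DESeq2 gave 0.0009 for HSPE1 with #1. With 1 library left out, HSPA1A with #2 ran from -0.38 to 0.50, HSPA8 with #1 from -0.04 to 0.04, HSPA14 in the mean from -0.01 to 0.02, BAG3 with #3 from -0.01 to 0.03, PTGES3 in the mean from -0.03 to 0.05 and HSPE1 with #1 from -0.04 to 0.05.

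Same-numbered libraries did not deviate together, with r over genes between -0.236 and 0.172 in 18 pairs, 5 of them over 0.1, and 3 of 12 libraries closest to their own number. With the replicate number as a block, 24, 18 and 28 members were called with #1, #2 and #3, and 10 were higher with all 3. Of the members' calls against scramble, those of HSP90AA1 with #1 (edgeR adjusted p = 0.0615), HSP90AB1 with #2 (0.0618), DNAJC7 with #2 (0.0801) and CCT7 with #3 (0.0561) were lost under that block. The exact test of edgeR compares 2 groups and was not run for the mean of the siRNAs. HSPA1A, at 7 to 145 counts per library, had an SE of 0.55 or more, with scramble replicate 2 at 0.0565 CPM beside 0.612 and 0.569 in the other scramble libraries.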
